A study of Caenorhabditis elegans with 2 samples.

Results

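The nematode Caenorhabditis elegans senses oxygen and carbon dioxide with its BAG neurons, and the genes gcy-9, gcy-31, gcy-33, tax-2 and tax-4 encode the receptors and the channel they use. These 5 genes, of 19973 protein-coding genes in the annotation, were chosen by name. Their regions were all ranked regions of ETS-5 chromatin immunoprecipitation with sequencing (ChIP-seq) whose summit lay within 2000 bp of an annotated start site or in the gene body. That rule gave 52 of the 126002 regions of the main ranked list. None of the 5 genes had a region that passed the authors' threshold. The upstream region of gcy-33 came closest, at rank 448 by signal, and it contained a whole transfer RNA (tRNA) gene. It held 1 GGAA, the core of ETS-domain binding sites, but not the longer word CCGGAA. Of all regions, 9.18% had that longer word near the summit. The best regions of gcy-9, gcy-31 and tax-4 lay near the median of all genes, and that of tax-2 lay below it.

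GCY-9 is a receptor-type guanylyl cyclase of the cell membrane that is needed for the response to carbon dioxide. GCY-31 and GCY-33 are soluble guanylyl cyclases with heme-binding domains that are needed for the response to falling oxygen. The cyclic GMP made by such enzymes opens a cation channel built from TAX-4, the alpha subunit, and TAX-2, the beta subunit, which many other sensory neurons also use. ETS-5 is a transcription factor with an ETS DNA-binding domain, known as a regulator of BAG neuron identity, and ETS domains bind DNA words built around GGAA.

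The chromatin came from whole larvae of the first stage (L1) of the strain OP809, starved after bleaching for synchronisation, with a labelled age of 6 hours. The strain carries wgIs809, a fosmid transgene with ets-5 fused to TY1, EGFP and 3xFLAG sequences together with unc-119(+), in the unc-119(tm4063) background, and the labels describe precipitation with an antibody to GFP, although the antibody field names ets-5. The tagged gene was present besides the worm's own ets-5, and the labels do not say in which cells the fusion was made. There was 1 group with 2 biological replicates, each with 1 technical replicate, so no condition could be compared with another.

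Sequencing depth is unknown, and no input or untagged sample was analysed here. The BAG neurons are a very small part of a larva, so fewer cells with the protein on a gene and less protein per cell cannot be told apart, and no value below is specific to BAG neurons. Each deposited region has a signal, a value of the authors' peak caller in unstated units, and a score that follows its irreproducible discovery rate (IDR), which rises the less well a region's rank recurs between compared lists. A score of 830, the lowest among the regions the authors listed as passing, corresponds to a global IDR of 0.01. Signals were therefore compared within a list only, by rank or percentile. The median signal was 23.6 in the main list, 14.8 in the replicate 1 list of 108309 regions and 14.5 in the replicate 2 list of 92443 regions.

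The sequence of the gcy-33 region is shown first because that region had the highest rank of the 52. It lies on chromosome V at V:12001963-12002262 of the build ce11 and is printed on the minus strand, the strand of gcy-33, from 465 to 166 bp upstream of the start site. Capitals mark the tRNA gene WBGene00014406, which is annotated on the opposite strand. The stretch has a GC content of 52.3%, 1 GGAA core and 0 copies of CCGGAA.
gcy-33 upstream region: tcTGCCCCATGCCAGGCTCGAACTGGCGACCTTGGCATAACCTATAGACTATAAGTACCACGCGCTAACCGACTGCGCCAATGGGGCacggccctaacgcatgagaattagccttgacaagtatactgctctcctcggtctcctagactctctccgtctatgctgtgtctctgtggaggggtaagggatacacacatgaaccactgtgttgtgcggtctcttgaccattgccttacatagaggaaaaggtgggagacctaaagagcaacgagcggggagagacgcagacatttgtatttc

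The word CCGGAA, searched on both strands, occurred in upstream regions of gcy-9, gcy-31 and tax-4, and 120 bp around it are given for each. Capitals mark the word, which reads TTCCGG where it lies on the opposite strand. The gcy-9 stretch is X:11338001-11338120, minus strand, from 237 to 118 bp upstream of the start site. The gcy-31 stretch is X:2427564-2427683, minus strand, from 179 to 60 bp upstream. The tax-4 stretch is III:9180899-9181018, plus strand, from 647 to 528 bp upstream. Each stretch holds the word once, and none of these bases is in an untranslated region.
gcy-9 upstream region: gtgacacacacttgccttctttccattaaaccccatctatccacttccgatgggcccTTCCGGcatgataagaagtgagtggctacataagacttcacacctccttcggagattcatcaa
gcy-31 upstream region: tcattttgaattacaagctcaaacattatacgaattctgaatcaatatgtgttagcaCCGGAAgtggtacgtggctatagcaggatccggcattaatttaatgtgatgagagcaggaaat
tax-4 upstream region: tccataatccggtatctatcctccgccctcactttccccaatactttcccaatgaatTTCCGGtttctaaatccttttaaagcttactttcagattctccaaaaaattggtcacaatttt

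The first question was whether the gas-sensing genes were among those with a passing region. In the main list 0 of the 5 genes had a region with a score of 830 or more, against 1.33% of all protein-coding genes. In the list that compares the replicates it was 0 of 5 against 0.961%. The replicate lists were cut at their own lowest passing scores, 833 and 834. There it was 0 of 5 against 0.125% in replicate 1 and 0 of 5 against 0.165% in replicate 2. With backgrounds this low, 5 genes chosen without regard to the data would usually give 0 as well, so the counts say little about the members. At a looser score of 540, which corresponds to a global IDR of about 0.05, gcy-33 was the only member to qualify in the main list, 1 of 5 against 10.1% of all genes.

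The 52 regions resembled the list as a whole in signal. Their median signal was 22.8, with a range from 3.63 to 73.9, beside the list median of 23.6, and 24 of the 52 lay above that median. The lowest score of the list was held by 20 of the 52 regions (38.5%) and by 38% of all regions. In the plot along each gene, the best main-list region lay upstream of gcy-33 and tax-4, but inside gcy-9, gcy-31 and tax-2. Inside gcy-33 there were also regions of 49.4 and 42.1.

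**Figure D1:**
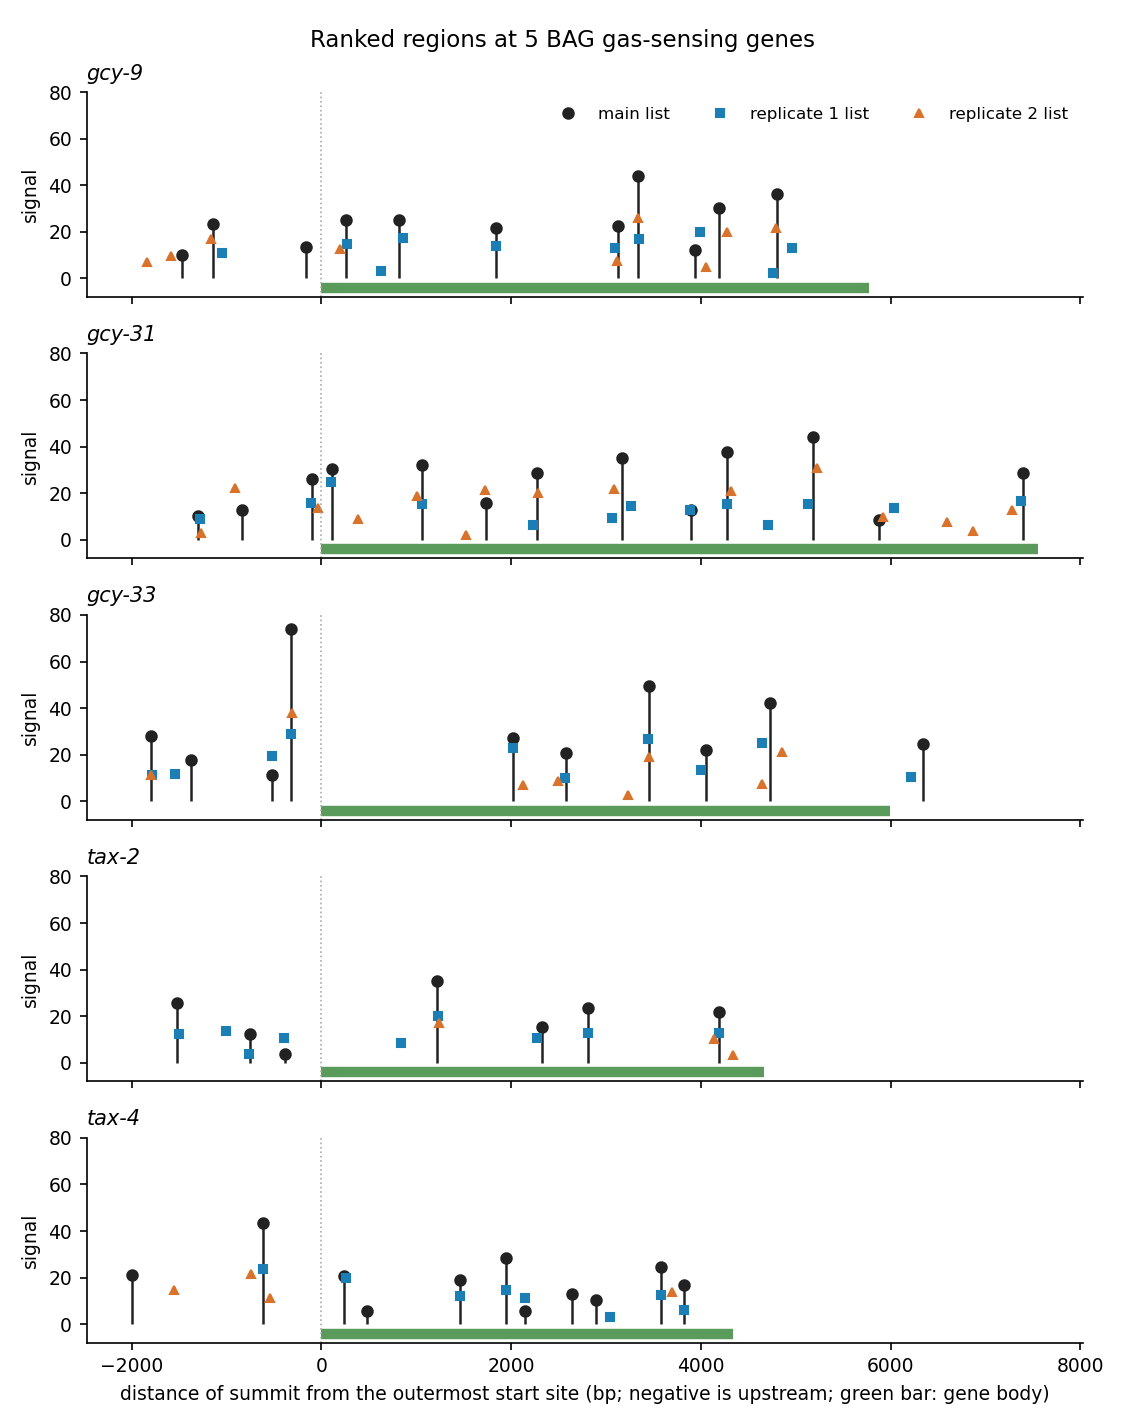
Signal of every ranked region (y axis, unstated units) against the distance of its summit from the outermost start site (x axis, bp, negative is upstream) for the 5 genes; black, blue and orange points are the main, replicate 1 and replicate 2 lists, and green bars are gene bodies. The gcy-33 point at 73.9, 316 bp upstream, is the highest, and the other black points reach at most 49.4.

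gcy-9, the carbon dioxide receptor gene (WBGene00001536, X:11332110-11337883, minus strand), had 11 regions, or 1.41 per kb of the searched span beside a median of 1.31 over all genes. Its best region lay in coding exon 15, 3340 bp inside the gene, with a signal of 44.1 at rank 13136. That is above 50.8% of the best regions of all genes, which is the middle of the distribution. The overlapping replicate regions had signals of 16.7 in replicate 1 and 26 in replicate 2, so the region was found in both, ranked at 45163 and 8073. In their own lists the gene's best regions lay at the percentiles 19.3 and 65.6, so the replicates placed gcy-9 on different sides of the median.

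The gcy-9 region closest to the start site, with its summit 162 bp upstream and the CCGGAA word 15 bp from that summit, was a weak one. Its signal was 13.6 at rank 96134, its score was 75, the lowest in the list, and neither replicate list had a region overlapping it. The next region by distance, 254 bp inside in coding exon 2, had a signal of 25, with 14.8 in replicate 1 and 12.6 in replicate 2. The start site of aco-1, the gene of an aconitase family protein, lies 1829 bp from the summit of the first of these, so an upstream region is shared with that neighbour. In the gene body, the region at 30.4 overlapped the microRNA gene cel-mir-254 (X:11333531-11333630) by 90 bp.

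gcy-31, one of the pair of oxygen-sensing soluble cyclases (WBGene00001551, X:2419955-2427504, minus strand, 3 annotated start sites), had 13 regions, 1.36 per kb. Its best region was in coding exon 10 with a signal of 44.3 at rank 12847, above 51.5% of genes. Replicate 1 had 15.3 there and replicate 2 had 31.0, at rank 51576 in the former and rank 2921 in the latter. The region stood high in replicate 2 alone, and by own best regions gcy-31 was at percentile 44.1 in replicate 1 and 85.1 in replicate 2.

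Around the gcy-31 start sites there were regions on either side. The upstream one, with its summit 97 bp before the outermost start and the word 22 bp from that summit, had a signal of 26.3 at rank 54209. A replicate 1 region of signal 15.6 at 107 bp upstream and a replicate 2 region of 13.7 at 40 bp upstream also had the word within 100 bp of their summits. It was thus the member region nearest to a start site that held the word and recurred in both replicates, although its signal was close to the list median. Just inside the gene, in intron 1, a region of 30.6 overlapped the best replicate 1 region of the gene, at 25. Further in, a region of 32.1 in intron 3 overlapped the noncoding RNA gene T07D1.11 by 116 bp, and the region of 28.5 near the gene's 3′ end was 237 bp from the start of glr-7, a glutamate receptor subunit gene.

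gcy-33, the other oxygen-sensing cyclase gene (WBGene00001553, V:11995805-12001797, minus strand, 3 annotated start sites), had 10 regions, 1.16 per kb, which is fewer per kb than the median gene. Its best region, V:12001958-12002267, has its summit 316 bp upstream of the outermost start, with a signal of 73.9 at rank 448, the top 0.356% of the list. In replicate 1 the overlapping region had a signal of 28.9 at rank 7980, and in replicate 2 it had 37.9 at rank 644. The summits in the 3 lists lay at 316, 323 and 314 bp upstream, so the position recurred closely while the rank did not. By their own best regions the gene was at percentile 64.7 in replicate 1 and 96.4 in replicate 2.

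**Figure D2:**
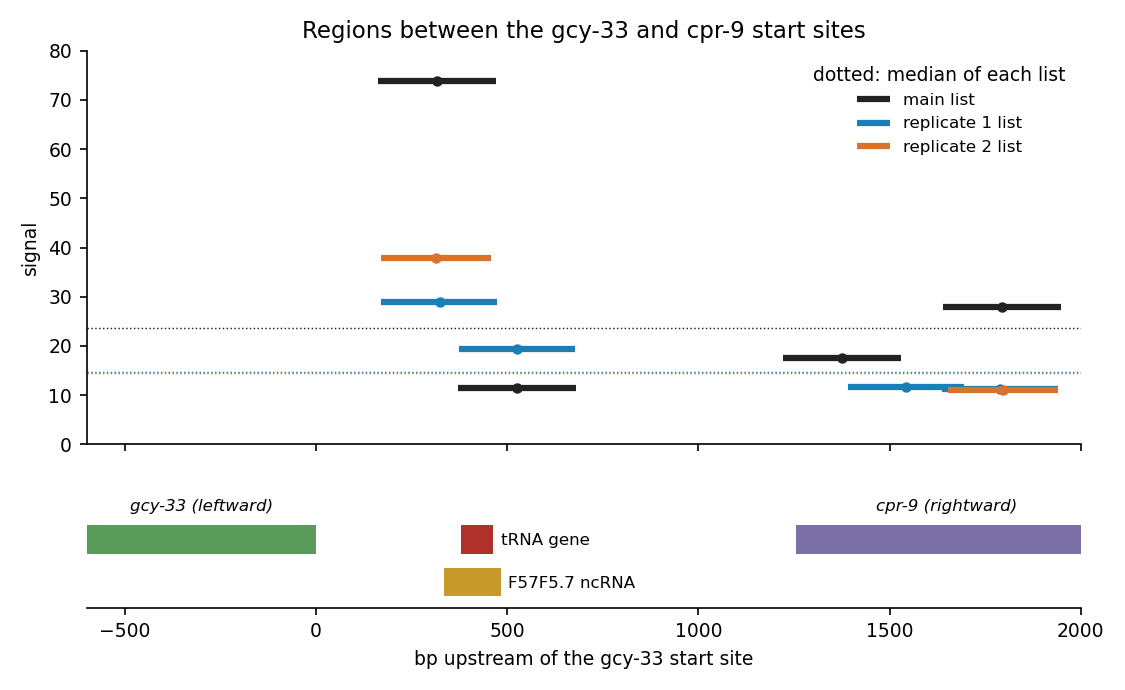
Ranked regions between the diverging start sites of gcy-33 and cpr-9, drawn as bars from start to end with a dot at the summit, at the height of their signal (y axis, unstated units) against the distance upstream of gcy-33 (x axis, bp); dotted lines are the list medians. The regions at 73.9, 37.9 and 28.9 lie over each other at the tRNA gene, and the regions toward cpr-9 are at 27.9 or below.

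The global IDR of this gcy-33 region was 0.0194 in the authors' deposited table, a score of 711, which places it at rank 612 by that measure. In the list that compares the replicates the same region had the same signal of 73.9, but a score of 605 and, in the authors' deposited table, a global IDR of 0.0349. Among the 448 regions of the main list at or above its signal, 259 reached a score of 830 and 214 were listed as passing, with a median score of 864, while 73 had a lower score than gcy-33. Its neighbours at ranks 447 and 449, nearest to Y39G10AR.15 and F09G2.2, had scores of 735 and 572, and those at ranks 446 and 450, nearest to spat-3 and ten-1, had 751 and 755. None of these 5 regions, with signals from 73.8 to 74.0, reached 830.

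The gcy-33 region also lies in a crowded interval. The start site of cpr-9, the gene of a cathepsin B-like protease that diverges from gcy-33, is 940 bp from the summit, and the starts are 1256 bp apart. The whole 85 bp tRNA gene, V:12002176-12002260 on the plus strand, is inside the region, 63 bp from the summit and 379 bp from the gcy-33 start site. The noncoding RNA gene F57F5.7, V:12002131-12002280 on the minus strand, has its 3′ end 18 bp from the summit and overlaps the region by 137 bp. The tRNA gene sequence printed above occurs 1 time in the genome, as do the 51 bases around the summit. The signal therefore cannot be assigned to 1 of these 4 genes from position.

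Regions at tRNA genes give a reference for that overlap. In the main list 324 regions overlapped 1 of the 612 annotated tRNA genes, and their median signal was 27.0 beside 23.6 for the others. A signal of 73.9 or more was reached by 7 of them (2.16%) and by 0.351% of the regions without a tRNA gene. A score of 540 or more was reached by 12 (3.7%), and by 1.62% of the others. The gcy-33 region is itself among the 324, the 7 and the 12, and its own signal set the cutoff of 73.9. The mean GC content was 41.9% ± 6.22 (SD, n = 324) at tRNA genes and 38.3% ± 6.91 (SD, n = 125678) elsewhere, and it was 51.2% in the gcy-33 region, the highest of the 52. The parts of the tRNA gene and of GC content in the gcy-33 signal were not tested.

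The remaining gcy-33 regions were lower. The second, in intron 5, had a signal of 49.4 at rank 7543, with 26.7 in replicate 1 and 19.0 in replicate 2. The third, in coding exon 8 near an internal start site, had 42.1, with 24.9 and 21.1, and lies 905 bp from the start of C52E4.12. Without the upstream region gcy-33 would thus stand at 49.4, beside a median of 43.9 over the best regions of all genes. The 1 copy of CCGGAA in the gcy-33 span is in intron 1, 285 bp inside the gene and 601 bp from the nearest summit, where the main list has no region and the list comparing the replicates has a region of signal 19.4.

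tax-4, the gene of the alpha subunit of the channel (WBGene00006526, III:9181546-9185888, plus strand), had 11 regions, 1.73 per kb, more per kb than 81.2% of genes. Its best region, 619 bp upstream, had a signal of 43.4 at rank 14011, above 48.6% of genes. The overlapping regions had signals of 23.5 in replicate 1 and 21.5 in replicate 2, and the gene's own best regions were at the percentiles 35.8 and 41.7. This is the member whose best region held CCGGAA, 31 bp from the summit and 588 bp upstream of the start. Its score was only 150, a global IDR of 0.435 in the authors' deposited table, which gave it rank 75931 by that measure against 14011 by signal.

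The other tax-4 regions fell along the gene. Those nearest the start site, 243 bp inside in coding exon 2 and 479 bp inside in coding exon 3, had signals of 20.9 and 5.76, and a replicate 1 region of 19.8 overlapped both while replicate 2 had none. A region of 16.9 in intron 9 held 2 overlapping copies of the word, 17 and 19 bp from its summit. The span of tax-4 had 4 copies of CCGGAA, with those 2 counted singly, or 6.31 per 10 kb beside 5.96 in the genome. The spans of gcy-9 (3 copies, 3.86 per 10 kb), gcy-31 (2, 2.09), gcy-33 (1, 1.16) and tax-2 (3, 4.5) had fewer per 10 kb than the genome. With so few copies these densities do not set the genes apart from the genome.

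tax-2, the gene of the beta subunit (WBGene00006525, I:9020945-9025608, plus strand), had the fewest regions and the lowest. There were 7, 1.05 per kb, and 6 of them had the lowest score of the list. The best, in coding exon 2 and 1223 bp inside, had a signal of 35.3 at rank 29004, above 23% of genes, with 20 in replicate 1 and 16.9 in replicate 2. By own best regions tax-2 was at the percentiles 19.8 and 19.0, so both replicates placed it low and close together. The region nearest its start, 388 bp upstream, had a signal of 3.63 at rank 122703, the lowest of the 52, and lies 1040 bp from the start of F36F2.1. No tax-2 region held CCGGAA within 100 bp of its summit.

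Ordered by the main list, the best regions ran from gcy-33 over gcy-31, gcy-9 and tax-4 to tax-2. The percentiles in the replicates spanned 64.7 to 96.4 for gcy-33, 44.1 to 85.1 for gcy-31, 19.3 to 65.6 for gcy-9, 35.8 to 41.7 for tax-4 and 19.0 to 19.8 for tax-2. The ranges of neighbours in this order overlapped for gcy-33 and gcy-31, for gcy-31 and gcy-9, and for gcy-9 and tax-4, but not for tax-4 and tax-2. Within each replicate gcy-33 was the highest of the 5, but the order of the others was not the same in both. Replicate 2 placed the 3 cyclase genes and, by less, tax-4 higher than replicate 1 did, as the plot of percentiles by list shows.

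**Figure D3:**
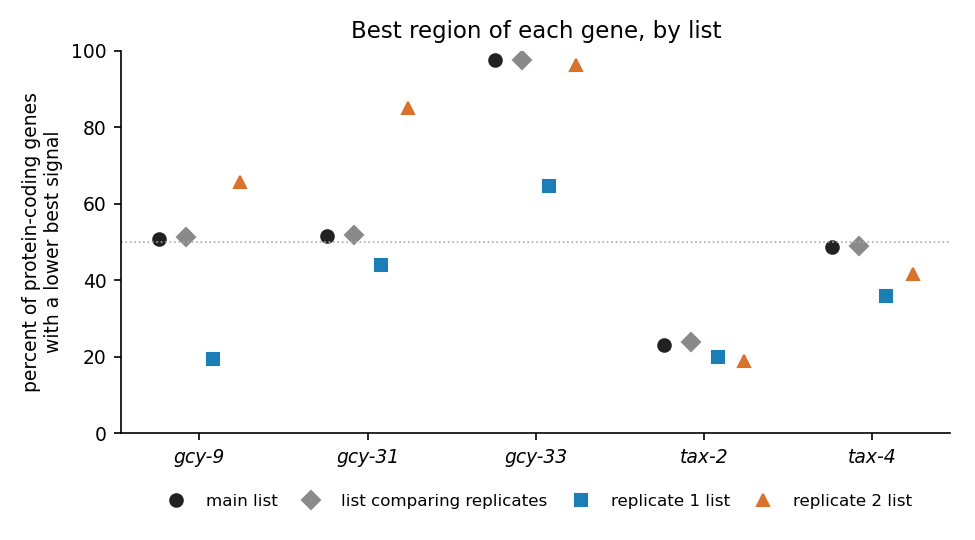
Percent of protein-coding genes with a lower best signal (y axis) for the best region of each of the 5 genes (x axis) in the main list, the list comparing replicates and the 2 replicate lists; the dotted line is the median gene. gcy-33 is at 97.7 in the main list but 64.7 in replicate 1 and 96.4 in replicate 2, and tax-2 is at 23 in the main list and close to that in the others.

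A gene with more regions has more chances of a high best region. In a comparison chosen after seeing the data, the 5 genes were set against the 7728 protein-coding genes with 7 to 13 regions, the range of the members. The median best signal of those genes was 45.9, and 11.3% of them reached a score of 540. There gcy-33 was at percentile 97.4, gcy-31 at 44.2, gcy-9 at 43.3, tax-4 at 41.0 and tax-2 at 13.6. The high place of gcy-33 was therefore much the same, and the other 4 genes lay a little lower than among all genes.

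**Figure D4:**
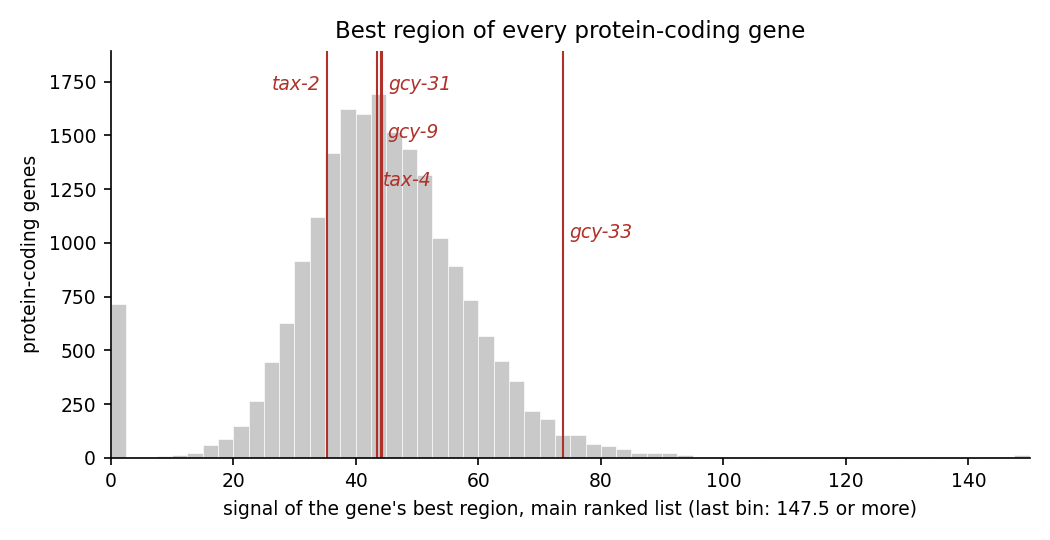
Number of protein-coding genes (y axis) by the signal of their best region in the main list (x axis, unstated units); red lines mark the 5 genes, the first bin holds the 714 genes with no region, and the last holds all genes at its lower edge or above. gcy-9, gcy-31 and tax-4 are at the peak of the distribution (43.4 to 44.3), tax-2 (35.3) is left of it and gcy-33 (73.9) is in its right tail.

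Of the 52 regions, 46 (88.5%, beside 80.4% of all main regions) were overlapped by a region of replicate 1. A region of replicate 2 overlapped 33 (63.5%, beside 69% of all), and 29 were overlapped in both. That is 55.8% (exact 95% binomial interval 41.3% to 69.5%), and the share over all main regions was also 55.8%. Both replicates had 7 of 11 regions of gcy-9, 10 of 13 of gcy-31 and 7 of 10 of gcy-33, but 2 of 7 of tax-2 and 3 of 11 of tax-4. The regions of a gene are not independent trials, so a binomial interval cannot compare these shares between genes. Replicate 2, whose list is the shorter, overlapped 2 regions of tax-2 and 4 of tax-4, while replicate 1 overlapped 7 and 9. Regions of low signal recurred less, so the list was also cut by signal into 4 bins of equal size. All 10 members' regions in the top bin were in both replicates, beside 84.3% of all regions there. In the bottom bin it was 4 of 14, beside 36% of all. Neighbouring regions can share a replicate region, and the difference between genes was not tested.

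The regions lay in coding exons more often than the list as a whole, which the rule of including whole gene bodies favours. Coding exons held 19 of the 52 summits (36.5%, beside 23.5% of all) and introns 13 (25%, beside 24%). The 500 bp around start sites of any protein-coding gene held 12 (23.1%, beside 23.8%). Only 7 (13.5%) were intergenic beyond that, beside 26.2% of all, which the same rule favours. Some of the 12 were near only a neighbour's start, at 237 bp from glr-7, 120 bp from cpr-9 and 92 bp from F36F2.1. The median signal of the members' regions near start sites was 25.3, and that of all such regions was 24. Closeness to a start of any gene thus did not set the members apart. Their mean GC content was 35.6% ± 4.96 (SD, n = 52), beside 38.3% ± 6.91 (SD, n = 126002).

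CCGGAA was found within 100 bp of the summit in 5 of the 52 regions, 9.62% (exact 95% binomial interval 3.2% to 21.0%), and in 9.18% of all regions. These 5 were the gcy-9 regions 162 bp upstream and in coding exon 7, the gcy-31 region 97 bp upstream, and the tax-4 regions 619 bp upstream and in intron 9. Their signals were 13.6, 21.5, 26.3, 43.4 and 16.9, a median of 21.5 beside 23.2 for the members' regions without the word. The overlapping word CGGAAG was in 9.62% of the members' regions and 7.19% of all, and the GGAA core, which is part of both, in 88.5% and 87.9%. These shares describe letters in the sequence and do not show binding.

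The other genes of the pathway, 26 genes in 6 lists, spread on either side of the members. Their median best signal was 57.1, beside 43.9 over all genes, and 20 of the 26 lay above that median. Of the 26, 1 reached a score of 830 (3.85%, beside 1.33% of all genes) and 8 reached 540 (30.8%, beside 10.1%). These genes had a median of 14 regions each and all genes a median of 6, so they had more chances of a high region, and the part of gene size in these shares was not tested.

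Among the other soluble guanylyl cyclase genes, gcy-35, known for the response to rising oxygen in other neurons, had a best signal of 64.6, and gcy-34 had 61.9. The gcy-35 region lay 133 bp upstream of a start site, and the highest score of any region of the gene was 678. The gene's best regions in the replicates were 35.2 and 49.2. Of the 7 receptor cyclase genes of other sensory neurons, 6 lay above the median of all genes. They were led by gcy-18, a thermosensory receptor gene, at 88.6 in a coding exon (rank 129), and gcy-22 at 59.9. The highest score of any gcy-18 region was 911. gcy-18 was thus the gene of the lists that reached 830. Of the 4 other channel subunit genes, cng-2 had 69.0, cng-3 62.1, che-6 46.1 and cng-1 38.4, so 3 lay above both tax-4 and tax-2 and cng-1 lay between them.

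Of the 6 phosphodiesterase genes, whose enzymes break down cyclic nucleotides, 5 lay above the median of all genes. The highest were pde-2 and pde-4, with best signals of 76.8 and 64.5, and the lowest was pde-5 at 34.2, below all 5 members. The cGMP-dependent kinase genes egl-4 and pkg-2 had 68.8 and 66.9. Both kinase genes had many regions, 47 and 28. The modulators of the oxygen response were low in the main list. There npr-1, a neuropeptide receptor gene, had 31.7, at percentile 14.8. In the replicates npr-1 differed widely, with 20.9 at percentile 23.2 in replicate 1 and 36.1 at percentile 94.9 in replicate 2. The globin gene glb-5 had no region in the main list and a best of 15.6 in replicate 2.

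**Figure D5:**
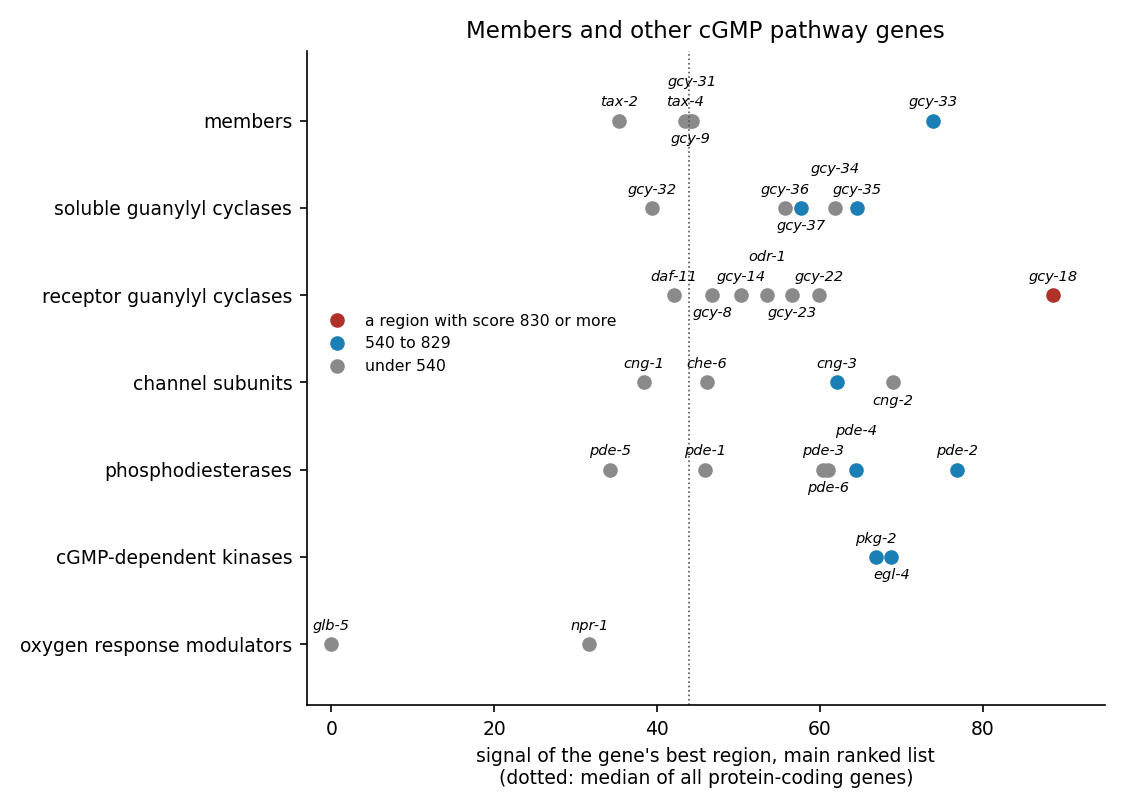
Signal of the best region in the main list (x axis, unstated units) for the 5 members and the 26 genes of 6 pathway lists (y axis), coloured by the highest score of any region of the gene; the dotted line is the median of all protein-coding genes, 43.9, and glb-5, with no region, is drawn at 0. gcy-33 at 73.9 lies among the higher pathway genes, below gcy-18 at 88.6 and pde-2 at 76.8, and the other members are at 44.3 or below.

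The genes whose best regions were placed most like those of gcy-33 were sought by the Euclidean distance between percentiles in the main, replicate 1 and replicate 2 lists, over 18625 genes with a region in all 3. The nearest was its divergent neighbour cpr-9, at a distance of 0, because both genes have the same best region. Next were ostb-1, an oligosaccharyltransferase subunit gene on chromosome II, at 1.8 percentile points with signals of 68.8, 28.9 and 39.2, and madf-9, a MADF-domain gene on chromosome IV, at 2.82 with 68.1, 28.7 and 41.2. Both were chosen for their likeness to gcy-33 in these places, high in the main list and in replicate 2 and middling in replicate 1. The likeness is thus no further result, and it rests on 3 values per gene.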

How the data were processed

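Regions from ChIP-seq of tagged ETS-5 in whole L1 larvae were taken as deposited, in 2 biological replicates of 1 group. Per the labels the build was ce11 and fragmentation was by sonication. The aligner and the caller were not given in the sources used here. As PCR copies and depth cannot be seen, intervals cover counting error only. They also take regions as independent, which overlapping neighbours are not. No test was made, because there is no second group and the regions of a gene are not replicates.

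Each deposited signal is the authors' caller value for a region, of unstated scale. The deposited score was checked on all 126002 regions: within 1 point it equals 125 times −log2 of the global IDR, with a ceiling of 1000. The deposited −log10 values are those of the local and global IDR. The authors' list of passing regions used 1 more file of unstated role: 300 ranked regions reach 830 and 250 are listed. Summits follow the deposited offset in each region.

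The main ranked list is that behind the authors' main list of passing regions. Regions were ranked by signal within a list, placed on genes of Ensembl release 115 (same coordinates as ce11), and assigned to every protein-coding gene by the rule used for the members. Percentiles count genes with a lower best signal, and genes without a region count as 0. Recurrence needed 1 bp of overlap. Words and printed sequences were read from the NCBI RefSeq genome of the same build, on both strands. Scripts ran in Python 3.11.15 with numpy 2.4.6, pandas 2.3.3 and scipy 1.17.1, and were tested on simulated data.

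The members and the lists were chosen with earlier results of these data known. Genes named are the 5 members, with every region within 500 bp of a start site and the best region in each list, genes that share a named region, the 3 genes most like the best-ranked member, and up to 2 genes by signal of each pathway list. The tRNA and other noncoding genes, the genes nearest by rank, pde-5, che-6, cng-1 and some further regions do not follow from that rule and were named with their values known. The alternatives were another ranked list, each replicate alone, other windows, thresholds, words and overlaps, and genes with as many regions as the members.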

Additional observations from a re-analysis of the deposited data

How the results depend on the processing

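Of 49 alternatives for the 5 main results, 43 moved shares and percentiles by less than the spread (SD) between replicates, or counts by at most 1.5 times. The limit is lenient: for percentiles and the ETS word, the replicates' own lists both set the spread and served as alternatives. For the share recurring in both replicates, the spread was that between the shares overlapped by each replicate, 88.5% and 63.5%. The SD was thus 17.7 points there, and 22.4 points for the gcy-33 percentile. The count of members with a passing region was 0 in 9 of its 10 alternatives and 1 at a score of 540 or more. Several of those 9 could only give 0, though they count among the 43. A score of 1000 is stricter, and shorter windows, gene bodies alone and the outermost start alone search part of the same regions. The 52 assigned regions became 80 with a window of 5000 bp, which searches more sequence. The share with the ETS word, 9.62%, was 5.56% in gene bodies alone and 88.5% for the shorter core GGAA. It was 10% in the replicate 1 list and 5.13% in the replicate 2 list. The percentile of the gcy-33 region, 97.7, was 64.7 in the replicate 1 list and 96.4 in the replicate 2 list. Its place was thus high in replicate 2 and lower in replicate 1, and the main list was not rebuilt without a replicate. With gene bodies alone, which leave out the upstream region, gcy-33 was at 79.1. The cause of these moves was not tested. The share of regions recurring in both replicates ranged from 38.5% to 61.1%. For single genes 56 of 81 alternatives stayed within the same limits. No paired analysis was possible because the labels give 1 group only. Depth is unknown, and with 2 replicates the spread is itself poorly known.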
